A study of Mus musculus with 24 samples.

Results

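The genes described here are 8 transcriptional regulators of thermogenic fat, taken by their symbols from the 24825 genes listed in each library, without use of their measured values. They are the coactivators *Ppargc1a* and *Ppargc1b*, the coregulator *Prdm16*, the nuclear receptors *Ppara*, *Esrra* and *Esrrg*, and the DNA-binding factors *Irf4* and *Tfam*. RNA-seq was performed on immortalized stromal vascular fraction cells of inguinal white adipose tissue (ingSVF), a mixed preparation that includes adipocyte precursors. The cells came from *Nfia* flox/flox mice, in which exon 2 of the gene for nuclear factor I-A (NFIA) is flanked by loxP sites, and all of them carried the SV40 large T antigen.

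There were 4 cell types, each with 3 libraries at day 0 and 3 at day 7, which gave 24 libraries in 8 groups. The ctrl cells had an empty retroviral vector and kept *Nfia*. The Cre cells expressed Cre recombinase from a retrovirus. The NFIA cells expressed Cre together with full-length NFIA carrying a FLAG tag. The Δpro#3 cells expressed Cre along with a tagged NFIA missing one segment of its C-terminal proline-rich domain. Confluent cells received isobutylmethylxanthine, indomethacin, dexamethasone, insulin, T3 and rosiglitazone for 48 hours, then insulin, T3 and rosiglitazone. Rosiglitazone is an agonist of PPARγ, the receptor that drives adipocyte differentiation. Nothing in the labels says that replicates were separate cultures, so the p-values measure the spread between these libraries, which may be technical, and each cell type is 1 immortalized population.

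PGC-1α, encoded by *Ppargc1a*, and PGC-1β, encoded by *Ppargc1b*, do not bind DNA themselves but are recruited by nuclear receptors such as PPARα and the estrogen-related receptors ERRα and ERRγ, and they raise the transcription of genes for mitochondria and fatty acid oxidation. In brown and beige adipocytes *Ppargc1a* is induced by cold through the β-adrenergic receptor and cAMP, and IRF4 is a partner of PGC-1α at thermogenic genes, while PRDM16 is a zinc finger protein that favors the brown over the muscle fate of precursors. TFAM is imported into mitochondria, where it packages and transcribes the mitochondrial genome.

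Values are FPKM, which scale a gene's fragments to its length and to 1000000 fragments of the library, so levels can be compared between genes. Library totals, recovered from the deposited values, were 7.73 to 14.62 M reads (M, 1000000). Gene-level *Nfia* was 9.55 ± 0.355 FPKM in ctrl and 10.1 ± 0.588 FPKM in Cre cells at day 7 (SD, n = 3). These values cover the whole gene and so do not test the loss of exon 2, which rests on the labels. In the NFIA and Δpro#3 cells *Nfia* was 90 ± 6.68 and 102 ± 8.44 FPKM at day 7, transgene reads included. In all libraries, defining markers of other cell types were at or near 0 reads: *Ptprc* (blood cells) had at most 1, *Adgre1* (macrophages) and *Myod1* (muscle) had 0, *Sox10* (Schwann cells) had at most 2, *Msln* (mesothelium) had at most 1, and each of *Pecam1*, *Cdh5* and *Emcn* (endothelium) had at most 19.

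The stretches of DNA just upstream of 2 of the genes are given because these are the coregulators for which the window of 250 bases before the RefSeq start site held no annotated exon. The *Ppargc1a* gene spans chr5:51845488-51958964 on the minus strand of mm9 (NCBIM37), and *Prdm16* spans chr4:153690234-154010982, also on the minus strand. The windows lie at chr5:51958965-51959214 and chr4:154010983-154011232, are written 5′ to 3′ on the strand of the gene, and have 48% and 62.4% G and C. The capitals in the *Ppargc1a* window mark the motif TGACG read on the other strand, 49 to 45 bases before the start.
Ppargc1a: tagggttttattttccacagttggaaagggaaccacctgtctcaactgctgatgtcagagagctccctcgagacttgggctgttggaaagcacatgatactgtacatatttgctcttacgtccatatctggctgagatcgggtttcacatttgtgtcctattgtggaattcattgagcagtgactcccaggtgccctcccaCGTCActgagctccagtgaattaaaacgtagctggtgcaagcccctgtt
Prdm16: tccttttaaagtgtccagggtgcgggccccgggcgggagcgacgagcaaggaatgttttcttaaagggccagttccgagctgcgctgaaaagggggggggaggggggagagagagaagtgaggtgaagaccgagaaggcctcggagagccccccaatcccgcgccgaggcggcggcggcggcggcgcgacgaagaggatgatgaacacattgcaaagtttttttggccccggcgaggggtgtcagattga

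RefSeq start sites (from the GRCm38.p6 table, placed on mm9 by exact match) were matched for 7 of the 8 genes and gave 10 windows, which were searched on both strands for 8 motifs. The palindromic nuclear factor I site, TTGGC and GCCAA with 5 bases between them, was in 0 of the 10 windows, and in 0.0365% of the 32851 mouse windows of this length. The single NFI motif TTGGCA was in 1 window, at *Esrrg* (12.3% of all windows), and the element TCAAGGTCA bound by estrogen-related receptors was in 0 windows (0.387%), as was AGGTCA, which is contained in it (14%). The cAMP response element TGACGTCA was in 0 windows (1.55%), and TGACG, which is contained in it, was in 2, at *Ppargc1a* and *Ppara* (17.8%). One *Ppara* window held the NRF1 motif (GCGCA and its reverse complement in a row), 31 to 22 bases before the start (0.782%), and 1 *Esrrg* window held the MEF2 motif (CTA, TTTA and TAG in a row), 22 to 13 bases before the start (0.14%). Annotated exons covered 150 of the 250 bases of the *Ppara* window and 109 of the *Esrrg* window with matches. These 2 windows are therefore not wholly upstream of annotated transcripts. A match or its lack describes these letters in these windows only.

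At day 0 only *Tfam*, *Esrra* and *Prdm16* had FPKM of at least 1 in any library. *Tfam* ranged from 12.2 to 15.6 FPKM over the 12 day 0 libraries, *Esrra* from 11.3 to 18.9 FPKM and *Prdm16* from 1.2 to 2.0 FPKM. *Ppara* was between 0.149 and 0.522 FPKM. The other 4 regulators had few reads at day 0. *Ppargc1a* had 0 to 4 reads per library and *Ppargc1b* 3 to 11, and *Irf4* had 0 to 21, while *Esrrg* had at most 3 reads in every library.

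At day 7 the order of levels in ctrl cells was *Esrra* (36.5 ± 4.31 FPKM), *Ppargc1b* (16.7 ± 0.83), *Tfam* (16.3 ± 1.23), *Prdm16* (2.8 ± 0.317), *Ppara* (2.18 ± 0.472), *Ppargc1a* (1.44 ± 0.284), *Irf4* (1.21 ± 0.15) and *Esrrg*, with 1 to 2 reads per library (SD, n = 3). PGC-1β mRNA was thus the more abundant of the PGC-1 pair, and ERRα mRNA the more abundant of the ERR pair. The ctrl libraries of *Ppargc1b* and *Tfam* overlapped, as did those of *Prdm16* and *Ppara* and those of *Ppargc1a* and *Irf4*. Fewer cells of a type and less RNA per cell cannot be told apart in these bulk libraries.

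**Figure D1:**
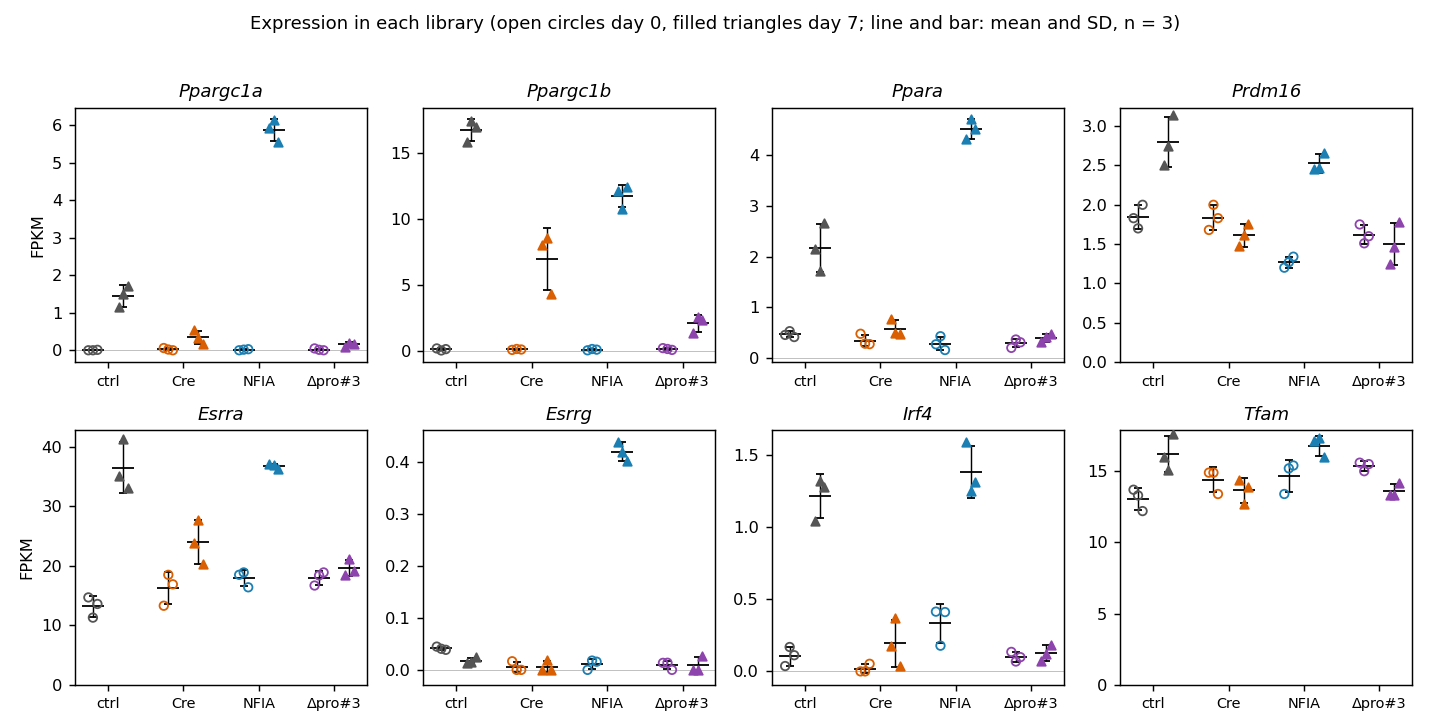
FPKM of each of the 8 genes (1 panel each, own scale) in the 4 cell types, with open circles for day 0, filled triangles for day 7, and a line and bar for the mean and SD of 3 libraries. *Ppargc1a* and *Esrrg* are highest in NFIA cells at day 7, *Ppargc1b* in ctrl cells at day 7, and *Tfam* stays between 12.2 and 17.6 FPKM throughout.

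The first question was which of these regulators rose during differentiation in each cell type. In ctrl cells 7 of the 7 genes tested were higher at day 7 than at day 0 (limma on log2(FPKM + 1), Benjamini-Hochberg adjusted p under 0.05), where 71.0% of all 12640 genes tested passed and 32.9% were higher. *Esrrg* was not tested because no library reached 1 FPKM. *Ppargc1a*, *Ppara* and *Irf4* entered the test only because the ctrl and NFIA libraries of day 7 reached 1 FPKM, and *Ppargc1b* because those of day 7 did, so the count describes these genes and supports nothing further. Differences on this scale understate the fold change of low genes. *Ppargc1b* rose by 3.95 on the log2(FPKM + 1) scale, the largest difference of the 7 on that scale, and its mean FPKM was 111 times that of day 0. By reads, *Ppargc1a* rose by a larger ratio, 352 times with a wide counting interval (62.8 to 14000, 353 against 1 read), and voom gave 7.32 for *Ppargc1a* and 6.85 for *Ppargc1b*. *Esrra* rose by 1.40, *Ppargc1a* by 1.28, *Ppara* by 1.11 and *Irf4* by 1.00, and *Prdm16* and *Tfam* by 0.42 and 0.29.

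In Cre cells 3 of 7 genes passed between days, all higher at day 7 (51.7% of all genes passed and 30.0% were higher). These were *Ppargc1b* (2.76), *Esrra* (0.54, adjusted p = 0.000595) and *Ppargc1a* (0.38, adjusted p = 0.00443). The *Ppargc1a* call was lost under quantile normalization (0.03, adjusted p = 0.819), where its adjusted p over the alternatives ranged from 0.000288 to 0.819. The other 4 differences between days in Cre cells were 0.23 for *Ppara*, 0.22 for *Irf4*, -0.12 for *Prdm16* and -0.07 for *Tfam*.

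In NFIA cells all 7 genes tested were higher at day 7, where 70.1% of all genes passed and 31.8% were higher. The filter named for ctrl cells bears on this count as well. *Ppargc1b* rose by 3.50, *Ppargc1a* by 2.76, *Ppara* by 2.12, *Esrra* by 1.00, *Irf4* by 0.84 and *Prdm16* by 0.64. *Tfam*, the smallest of these, rose by 0.19 (adjusted p = 0.0179), and lost its call without NFIA day 0 replicate 1 (0.13, adjusted p = 0.122), NFIA day 7 replicate 1 (0.17, adjusted p = 0.0535) or NFIA day 7 replicate 2 (0.16, adjusted p = 0.0636).

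In Δpro#3 cells only *Ppargc1b* passed among the 7 (41.5% of all genes passed and 24.5% were higher), with a rise of 1.38 (adjusted p = 8.76e-07) and a mean FPKM 12 times that of day 0. *Ppargc1b* thus rose in every cell type, from 0.176 to 2.11 FPKM in Δpro#3 cells and from 0.15 to 16.7 FPKM in ctrl cells. *Ppargc1a* had 38 reads at day 7 and 5 at day 0 in Δpro#3 cells, a rate 7.82 times higher (counting interval 3.07 to 25.5) with no overlap between days. It did not pass on log2(FPKM + 1) (0.18, adjusted p = 0.176) but passed by voom (3.11, adjusted p = 0.00226). The count on log2(FPKM + 1) was 2 without NFIA day 0 replicate 1. These comparisons of days were fitted together over all 24 libraries.

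**Figure D2:**
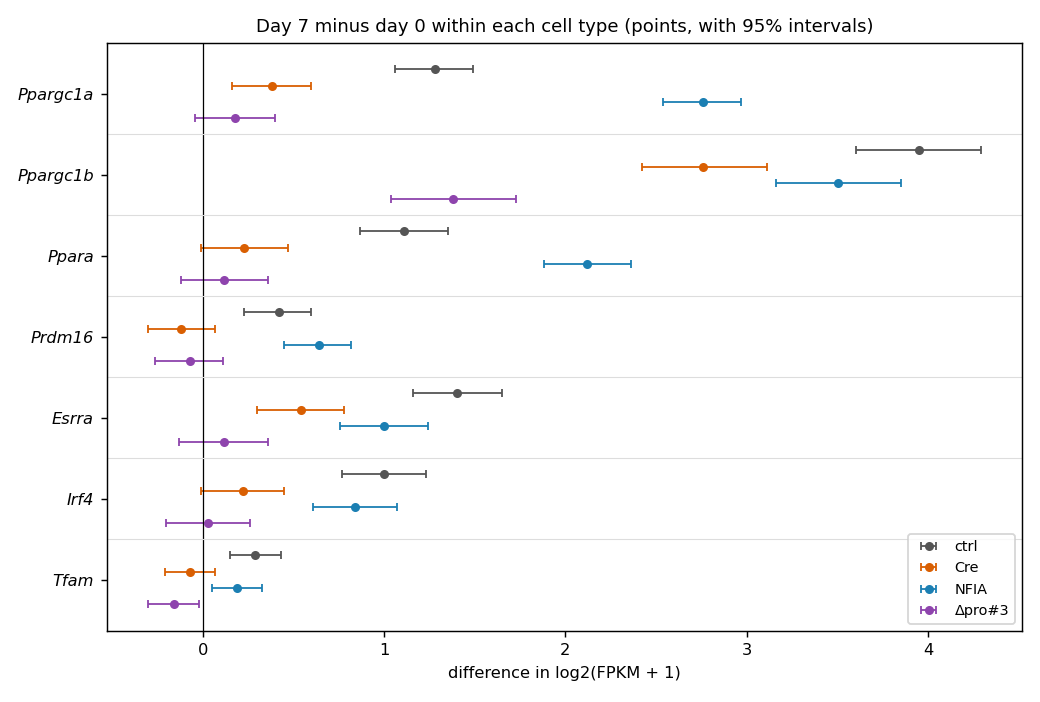
Difference between day 7 and day 0 in log2(FPKM + 1) for the 7 genes tested in each cell type, with points for the limma estimate and bars for its 95% interval. *Ppargc1b* lies farthest right in all 4 cell types (1.38 to 3.95), and the Δpro#3 points of the other 6 genes lie between -0.16 and 0.18.

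The central comparison at day 7 was whether the regulators depended on NFIA, with Cre set against ctrl cells for its loss and NFIA against Cre cells for its return. Both comparisons share the Cre libraries, so they are not independent. All 7 genes tested were lower in Cre than in ctrl cells, where 58.8% of all genes passed and 22.7% were lower. All 7 were higher in NFIA than in Cre cells, where 63.0% of all genes passed and 27.0% were higher. The medians of the 7 differences were -0.87 and 0.72, beside 0.09 and -0.06 over all genes tested. The filter that let *Ppargc1a*, *Ppara* and *Irf4* into the test through their ctrl and NFIA libraries bears on both counts. Both counts were 7 when any 1 library was left out. When a change of at least 3-fold on the log2(FPKM + 1) scale was asked as well, 2 genes passed in NFIA against Cre cells, *Ppargc1a* and *Ppara* (3.63% of all genes), and no regulator did in Cre against ctrl cells (1.51% of all genes). That scale compresses low genes, and several of the ratios of mean FPKM given below are above 3.

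*Ppargc1a*, the inducible coactivator, measured 1.14, 1.49 and 1.7 FPKM in ctrl cells, 0.531, 0.332 and 0.165 FPKM in Cre cells, and 5.91, 6.13 and 5.55 FPKM in NFIA cells. The lowest NFIA library was above every ctrl library, and the highest Cre library was below them. Cre cells fell by 0.87 (SE 0.12, adjusted p = 7.73e-05), a mean FPKM 4.21 times lower than in ctrl cells. NFIA cells were 2.36 above Cre cells (SE 0.12, 95% interval 2.10 to 2.63, adjusted p = 2.71e-08), and their mean FPKM was 17.1 times that of Cre cells.

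*Ppargc1b*, the related coactivator, measured 15.8, 17.4 and 17 FPKM in ctrl cells, 8.05, 8.58 and 4.33 FPKM in Cre cells, and 12.1, 10.8 and 12.4 FPKM in NFIA cells. The 3 groups did not overlap, and Cre replicate 3 stood well under its 2 companions. The differences were -1.20 for Cre against ctrl (SE 0.20, adjusted p = 0.000324) and 0.72 for NFIA against Cre (SE 0.20, adjusted p = 0.00834). Without Cre replicate 3 the latter was 0.45 (adjusted p = 0.0233), so that library moved it by over 1.5 times.

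Among the nuclear receptors, *Ppara*, the receptor that drives genes of fatty acid oxidation, measured 2.14, 1.72 and 2.66 FPKM in ctrl cells, 0.764, 0.493 and 0.457 FPKM in Cre cells, and 4.33, 4.72 and 4.52 FPKM in NFIA cells. It thus followed the order seen for *Ppargc1a*, with Cre lowest and NFIA highest and no overlap between the 3 groups. It was -1.01 in Cre against ctrl (SE 0.12, adjusted p = 2.19e-05) and 1.82 in NFIA against Cre (SE 0.12, adjusted p = 1.41e-07), or 3.81 times lower and 7.92 times higher in mean FPKM.

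*Esrra*, which encodes ERRα, a receptor for genes of oxidative phosphorylation, measured 35.2, 41.3 and 33.1 FPKM in ctrl cells, 23.8, 27.8 and 20.4 FPKM in Cre cells, and 37.1, 36.9 and 36.3 FPKM in NFIA cells. The ctrl and NFIA libraries overlapped, and all of them were above the Cre libraries. The differences were -0.59 (SE 0.10, adjusted p = 0.000421) and 0.60 (SE 0.10, adjusted p = 0.00029).

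*Esrrg*, the gene of the related receptor ERRγ, had 35, 31 and 35 reads in NFIA cells at day 7 (0.439, 0.419 and 0.403 FPKM), 1, 1 and 2 reads in ctrl cells, 0, 1 and 0 reads in Cre cells, and 0, 0 and 2 reads in Δpro#3 cells. The NFIA cells at day 0 had 0, 1 and 1 reads, and no library outside the NFIA group of day 7 had more than 3. Per counted read the NFIA cells of day 7 had 23 times the ctrl level (counting interval 8.71 to 86, 101 against 4 reads) and 80.2 times the Cre level (14.1 to 3200, 101 against 1 read). These intervals cover counting error only. Each comparison gave p = 0.1 by a two-sided exact permutation test, the smallest that 3 against 3 libraries can give. When limma was run without the filter on low values (19037 genes), NFIA cells were 0.50 above Cre cells (adjusted p = 4.65e-08) and 0.48 above ctrl cells (adjusted p = 1.34e-07).

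*Prdm16* measured 2.51, 2.75 and 3.14 FPKM in ctrl cells, 1.47, 1.61 and 1.76 FPKM in Cre cells, and 2.45, 2.47 and 2.66 FPKM in NFIA cells. The Cre libraries lay below all the others, and ctrl and NFIA overlapped. The differences were small, -0.54 for Cre against ctrl (SE 0.10, adjusted p = 0.000617) and 0.43 for NFIA against Cre (SE 0.10, adjusted p = 0.00242).

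*Irf4*, an interferon regulatory factor that adipocytes induce on fasting, measured 1.04, 1.32 and 1.28 FPKM in ctrl cells, 0.175, 0.367 and 0.038 FPKM in Cre cells, and 1.59, 1.25 and 1.31 FPKM in NFIA cells. All 3 Cre libraries, with 10, 16 and 2 reads, were below the other groups. It was -0.90 in Cre against ctrl (SE 0.12, adjusted p = 6.28e-05) and 1.00 in NFIA against Cre (SE 0.12, adjusted p = 1.89e-05), or 6.28 times lower and 7.15 times higher in mean FPKM.

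*Tfam* measured 16, 15.1 and 17.6 FPKM in ctrl cells, 14.4, 12.7 and 13.9 FPKM in Cre cells, and 17.1, 17.3 and 16 FPKM in NFIA cells. The Cre libraries were lowest again, but the gap was a small part of the level. The differences were -0.24 (SE 0.07, adjusted p = 0.00917) and 0.28 (SE 0.07, adjusted p = 0.00278), the smallest of the 7.

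**Figure D3:**
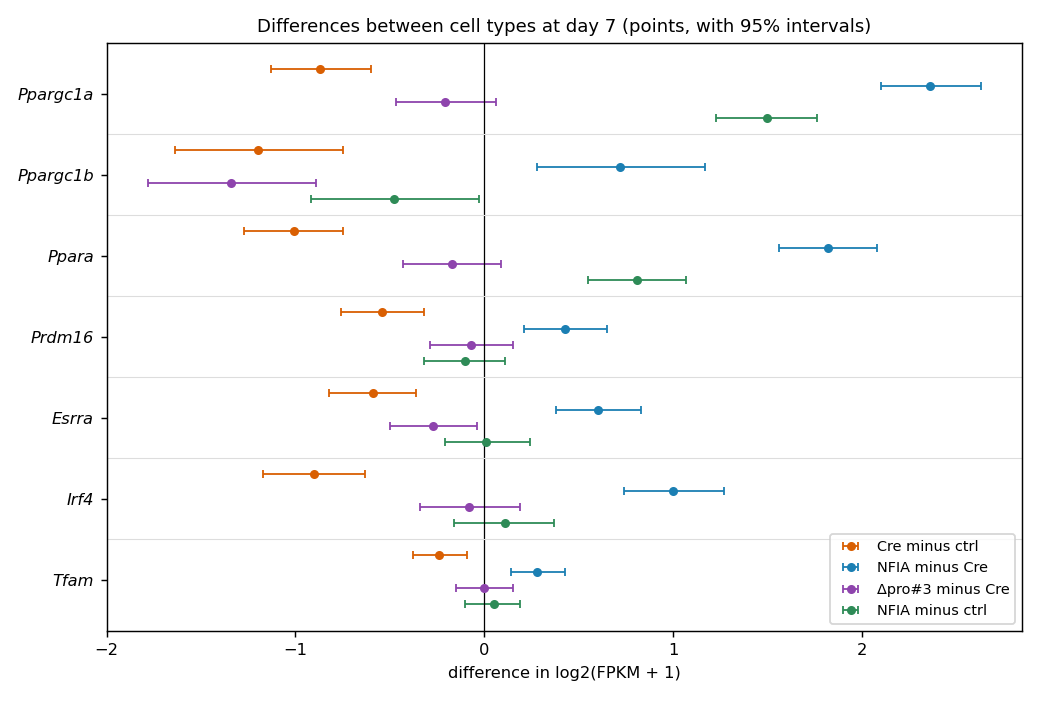
Differences in log2(FPKM + 1) between cell types at day 7 for the 7 genes tested, with points for the limma estimate and bars for its 95% interval, each comparison in its own color. All Cre against ctrl points lie left of 0 (-0.24 to -1.20), and all NFIA against Cre points lie right of it (0.28 to 2.36). The Δpro#3 against Cre points lie from -0.27 (*Esrra*, interval -0.50 to -0.04) to -0.00 (*Tfam*), except *Ppargc1b* at -1.34. This scale hides larger ratios of genes under 1 FPKM, such as *Ppargc1a* at 0.453 times the Cre rate of reads.

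Adipocyte genes moved with the same comparisons. All 18 of a list of adipocyte genes passed as lower in Cre than in ctrl cells (median -1.75, with 22.7% of all genes lower). All 18 passed as higher in NFIA than in Cre cells (median 1.79, with 27.0% of all genes higher). *Pparg*, the gene of PPARγ, was 52 ± 2.5, 22.4 ± 5.55, 60 ± 3.34 and 9.02 ± 2.52 FPKM in ctrl, Cre, NFIA and Δpro#3 cells, and *Fabp4*, the adipocyte fatty acid-binding protein, was 5360, 6610 and 2910 FPKM in the 3 Cre libraries, lowest in replicate 3. The summed FPKM of 6 precursor markers was 502 to 552 in ctrl, 1110 to 1250 in Cre, 528 to 598 in NFIA and 1260 to 1520 in Δpro#3 libraries. Such a sum weighs the highest genes most and does not show that each marker moved. Over all 24 libraries *Ly6a* reached 1970 FPKM and *Cd34*, the next highest, 244 FPKM. The part of these movements in the differences of the regulators was not tested.

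The Δpro#3 protein was then compared with no NFIA transgene and with full-length NFIA, to ask whether the deleted segment mattered for these genes. Against Cre cells 1 of the 7 genes tested passed, *Ppargc1b*, which was lower in Δpro#3 cells (10.0% of all genes were lower and 17.7% passed in either direction). *Ppargc1b* measured 1.36, 2.6 and 2.37 FPKM in Δpro#3 cells, all below the lowest Cre library of 4.33 FPKM. Its difference from Cre was -1.34 (SE 0.20, adjusted p = 0.00124), a mean FPKM 3.31 times lower. *Pparg* was lower in the same comparison, by -1.23 (adjusted p = 0.00122).

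For the other 6 genes the 95% intervals of the difference between Δpro#3 and Cre cells in log2(FPKM + 1) were -0.47 to 0.06 for *Ppargc1a*, -0.43 to 0.09 for *Ppara*, -0.29 to 0.15 for *Prdm16*, -0.34 to 0.19 for *Irf4* and -0.15 to 0.15 for *Tfam*. *Esrra* was at -0.27 (interval -0.50 to -0.04, adjusted p = 0.0961), with 18.5, 21.1 and 19.2 FPKM in Δpro#3 cells. It passed when Cre replicate 3 was left out (-0.38, adjusted p = 0.0184, against a range of 0.0184 to 0.334 over the libraries left out), which made the count 2. *Ppargc1a* was at 0.091, 0.201 and 0.179 FPKM in Δpro#3 cells, and *Irf4* at 0.072, 0.122 and 0.182 FPKM, each overlapping the Cre libraries. For genes under 1 FPKM this scale hides larger ratios. *Ppargc1a* had 0.453 times the Cre rate of reads (counting interval 0.298 to 0.679), *Ppara* 0.676 times (0.522 to 0.875) and *Irf4* 0.694 times (0.378 to 1.26), and voom gave log2 differences of -1.03 (SE 0.47, adjusted p = 0.148), -0.54 (SE 0.30, adjusted p = 0.24) and -0.18 (SE 0.62, adjusted p = 0.88).

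Against NFIA cells all 7 genes tested were lower in Δpro#3 cells (69.2% of all genes passed and 28.9% were lower), 3 of them by at least 3-fold on the log2(FPKM + 1) scale (6.92% of all genes). The largest differences were -2.57 for *Ppargc1a* (adjusted p = 7.7e-09), -2.06 for *Ppargc1b* (adjusted p = 2.11e-06) and -1.99 for *Ppara* (adjusted p = 3.71e-08). Mean FPKM was 37.3, 5.57 and 11.6 times higher in NFIA than in Δpro#3 cells for these 3 genes. *Irf4* was at -1.08 on that scale and 11 times lower in mean FPKM, *Esrra* at -0.88, *Prdm16* at -0.50 and *Tfam* at -0.28. Against ctrl cells all 7 were also lower in Δpro#3 cells (66.9% of all genes passed and 25.4% were lower), from -0.24 for *Tfam* to -2.54 for *Ppargc1b*, which was the gene at least 3-fold lower on the log2(FPKM + 1) scale (4.50% of all genes). In mean FPKM, *Irf4* was 9.7, *Ppargc1a* 9.18, *Ppargc1b* 7.93 and *Ppara* 5.56 times lower than in ctrl cells. Both counts of 7 are subject to the filter, which *Ppargc1a*, *Ppara* and *Irf4* passed only through their ctrl and NFIA libraries.

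The comparison of NFIA with ctrl cells showed which regulators returned to the ctrl level and which went past it. Of the 7 genes 2 passed, both higher in NFIA cells (18.0% of all genes passed and 8.81% were higher). *Ppargc1a* was 1.5 above ctrl (SE 0.12, interval 1.23 to 1.76, adjusted p = 1.24e-05) and *Ppara* 0.81 above it (SE 0.12, interval 0.55 to 1.07, adjusted p = 0.000815), with mean FPKM 4.07 and 2.08 times the ctrl level. *Esrrg*, untested with the filter, was 23 times the ctrl level as given above. *Nfia* itself was 90 ± 6.68 FPKM in these cells against 9.55 ± 0.355 FPKM in ctrl cells, so its level was not that of ctrl cells.

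*Ppargc1b* went the other way from *Ppargc1a*, with every NFIA library (10.8 to 12.4 FPKM) below every ctrl library (15.8 to 17.4 FPKM). Its difference of -0.48 (SE 0.20, interval -0.92 to -0.03) did not pass in the fit over the 12 libraries of day 7 (adjusted p = 0.13). It passed when only the ctrl and NFIA libraries were fitted (adjusted p = 0.00515), when all 24 libraries were (adjusted p = 0.0455), with a pseudocount of 5 (adjusted p = 0.0495), with voom on the recovered reads (-0.51, adjusted p = 0.026), and without Cre replicate 3 (adjusted p = 0.0315), and its adjusted p ranged from 0.00515 to 0.23 over the other alternatives and from 0.0315 to 0.298 over the libraries left out. For the remaining genes the intervals were -0.32 to 0.11 for *Prdm16*, -0.21 to 0.24 for *Esrra*, -0.16 to 0.37 for *Irf4* and -0.10 to 0.19 for *Tfam*.

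Because both PGC-1 genes are measured in each library, their ratio was taken within libraries. These ratios were chosen after the levels were seen. For every 100 FPKM of *Ppargc1b* the NFIA libraries had 48.7, 56.8 and 44.9 FPKM of *Ppargc1a*, a mean of 50.1 ± 6.1 (SD, n = 3). The ctrl libraries had 8.57 ± 1.4, the Cre libraries 4.76 ± 1.6 and the Δpro#3 libraries 7.33 ± 0.552. The NFIA libraries thus lay above all others, with p = 0.1 against each by an exact permutation test, which is the smallest possible, and 0.12 after adjustment over 48 comparisons of ratios.

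Set against *Pparg*, the regulators separated. Per 100 FPKM of *Pparg*, *Ppargc1a* was 2.76 ± 0.433 in ctrl, 1.48 ± 0.637 in Cre, 9.78 ± 0.063 in NFIA and 1.72 ± 0.389 in Δpro#3 cells, and *Ppara* was 4.17 ± 0.753, 2.61 ± 0.698, 7.56 ± 0.412 and 4.41 ± 0.389. *Ppargc1b* was 32.2 ± 1.58, 30.6 ± 3.54, 19.7 ± 2.43 and 23.4 ± 4.02 in the same order, so ctrl and Cre cells differed by less than the spread of the Cre libraries on this measure. *Irf4* was 2.33 ± 0.248, 0.774 ± 0.564, 2.31 ± 0.338 and 1.34 ± 0.237. *Esrra*, *Tfam* and *Prdm16*, which were expressed at day 0 too, were highest against *Pparg* where *Pparg* was lowest. They were at 228, 159 and 17 per 100 FPKM in Δpro#3 cells and 70.4, 31.2 and 5.37 in ctrl cells. Their day 7 means were 19.6 to 36.7, 13.6 to 16.8 and 1.5 to 2.8 FPKM. *Pparg* spanned 9.02 to 60 FPKM, so the denominator set the order of these 3 ratios. By the exact permutation test no comparison of these ratios had an adjusted p under 0.12.

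**Figure D4:**
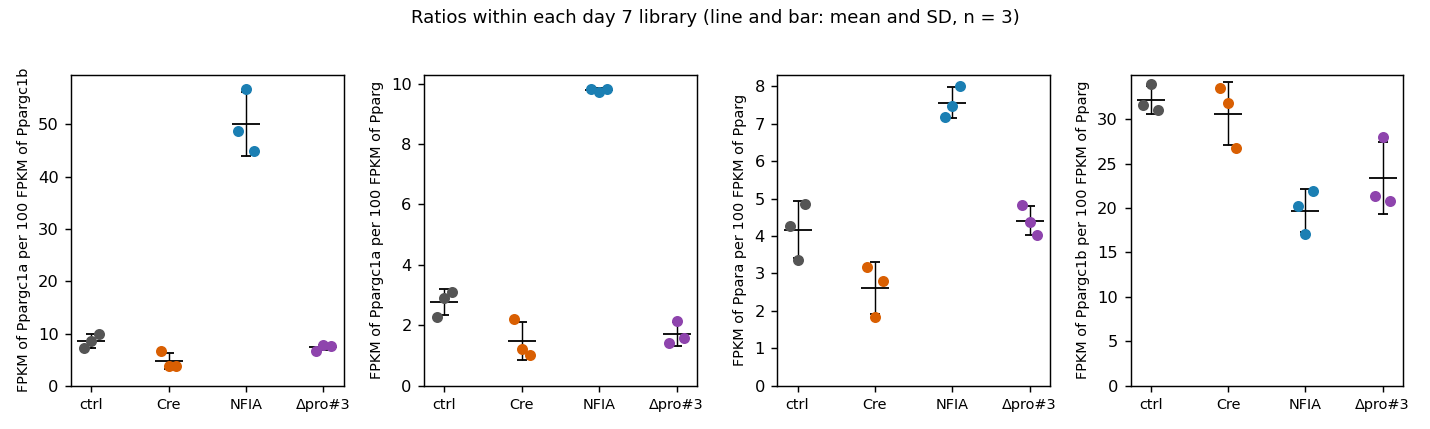
FPKM of one gene per 100 FPKM of another within each day 7 library, for the 4 cell types, with points for libraries and a line and bar for the mean and SD of 3. *Ppargc1a* per *Ppargc1b* is 44.9 to 56.8 in NFIA libraries against means of 4.76 to 8.57 in the other cell types, while *Ppargc1b* per *Pparg* has means of 19.7 to 32.2.

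At day 0, before the cocktail, the question was whether the precursors already differed. Between Cre and ctrl cells limma called 0 of the 7 genes (3.33% of all genes passed), 1 gene, *Esrra*, had an unadjusted p under 0.05, and voom called 0. By reads, *Irf4* in Cre cells had 0.15 times the ctrl rate (counting interval 0.0169 to 0.621, 2 against 19 reads), with overlapping libraries. Between NFIA and Cre cells 2 genes passed, beside 27.6% of all genes. *Irf4* was higher in NFIA cells, with 21, 8 and 21 reads against 0, 0 and 2, a difference of 0.39 (SE 0.08, adjusted p = 0.00531) and a rate 21 times higher (counting interval 5.52 to 178). *Prdm16* was lower, with 1.2, 1.27 and 1.34 FPKM in NFIA cells against 1.68, 2.0 and 1.83 FPKM in Cre cells (-0.32, SE 0.07, adjusted p = 0.00771). The NFIA libraries of both genes lay apart from the Cre libraries.

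Between Δpro#3 and Cre cells at day 0 limma called 0 of the 7 genes (18.3% of all genes passed), none had an unadjusted p below 0.05, and voom called 0. By reads, *Irf4* in Δpro#3 cells had 6.21 times the Cre rate (counting interval 1.49 to 55.2, 18 against 2 reads), with no overlap. Voom gave 2.37 for it (adjusted p = 0.0506), so the Cre libraries were low in *Irf4* beside both transgene groups. Between Δpro#3 and NFIA cells limma called 0 (10.1% of all genes passed), voom called 1, and the unadjusted p of 2, *Prdm16* and *Irf4*, was below 0.05. Without NFIA day 0 replicate 2, limma called 1 gene in place of 0. *Irf4* had 8, 4 and 6 reads in Δpro#3 cells, below or at the lowest NFIA library, and *Prdm16* had 1.75, 1.51 and 1.6 FPKM, above all 3 NFIA libraries. Of the 7, only *Prdm16* passed at both days in opposite directions, lower in NFIA than in Cre cells at day 0 and higher at day 7. The means of *Ppargc1a*, *Ppargc1b* and *Ppara* changed order too, but their day 0 libraries overlapped and those differences did not pass.

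Whether a difference between cell types changed with differentiation was tested as the difference at day 7 minus that at day 0, over all 24 libraries. For Cre against ctrl cells all 7 genes passed as lower (49.2% of all genes passed and 19.5% were lower), and for NFIA against Cre cells all 7 passed as higher (48.9% and 18.8%). Voom on the recovered reads called 5 of the 7 in each, losing *Ppargc1b* (-1.39, adjusted p = 0.189) and *Irf4* (-0.76, adjusted p = 0.572) for Cre against ctrl. For NFIA against Cre it lost *Ppargc1b* (1.02, adjusted p = 0.368) and turned *Irf4* to -0.75 (adjusted p = 0.561), and these p were the highest over the alternatives of each gene. A pseudocount of 0.1 also ended the calls of *Ppargc1b* (adjusted p = 0.0713) and *Irf4* (adjusted p = 0.392) for NFIA against Cre. Both counts of 7 are subject to the filter on low values described for the days in ctrl cells. For Δpro#3 against Cre cells only *Ppargc1b* passed, as lower (18.2% and 10.4%), and it did not pass by voom (-1.92, adjusted p = 0.131, the highest of its alternatives). *Prdm16* in NFIA against Cre cells changed by 0.75 (SE 0.12, adjusted p = 3.89e-05), from -0.32 at day 0 to 0.43 at day 7.

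Other genes of the pathway were described from 8 lists, of which adipocyte genes are given above. The counts below stand beside 36.1% of all genes higher and 22.7% lower in Cre against ctrl cells, 27.0% higher and 35.9% lower in NFIA against Cre cells, and 10.0% lower in Δpro#3 against Cre cells. Of 21 tested targets of PPARα, 20 were lower in Cre than in ctrl cells and 1 was higher (median -1.21), and 19 were higher and 1 was lower in NFIA than in Cre cells (median 1.39). The largest rises were of *Fabp3*, the heart-type fatty acid-binding protein (3.31), *Plin5*, a lipid droplet coat protein (2.55), *Cd36*, a fatty acid transporter (2.5), and *Acadm*, the medium-chain acyl-CoA dehydrogenase (2.08). Of 24 tested targets of ERR and PGC-1, most of them genes of the citrate cycle and respiratory chain, 22 were lower in Cre than in ctrl cells and 22 were higher in NFIA than in Cre cells (medians -0.80 and 0.90). Among them *Cycs*, cytochrome c, was 1.60 higher, *Idh3a* 1.58 and *Cs*, citrate synthase, 1.56 higher.

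Thermogenic effector genes moved the same way. The 8 of 13 that were tested all passed as lower in Cre than in ctrl cells and as higher in NFIA than in Cre cells (medians -1.83 and 1.83). The rest, *Ucp1*, *Cidea*, *Dio2*, *Slc27a2* and *Cpt1b*, were left out by the filter on low values. A gene under 1 FPKM in Cre cells could enter only through other groups where it was higher, so this count supports nothing further. *Cox8b*, a subunit of cytochrome c oxidase in muscle and brown fat, was 111 ± 4.02 FPKM in NFIA and 0.16 ± 0.139 FPKM in Cre cells (6.59), and *Cox7a1* and *Adrb3*, the β3-adrenergic receptor, were 2.86 and 2.80 higher. Against Cre cells, Δpro#3 cells were lower for 16 of the 21 PPARα targets, 20 of the 24 ERR and PGC-1 targets, 4 of the 8 effector genes and all 18 adipocyte genes (10.0% of all genes were lower), while of the regulators only *Ppargc1b* passed.

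Genes that act beside the regulators were mixed. Of 25 tested partners and corepressors of PGC-1 and PRDM16, 6 were higher and 14 lower in NFIA than in Cre cells, where 27.0% of all genes were higher and 35.9% lower. The share higher was near that of all genes and the share lower was above it (median -0.17, beside -0.06 over all genes). *Nrip1*, a corepressor of nuclear receptors also called RIP140, was 1.18 higher and *Lpin1*, a coactivator of PGC-1α and PPARα that is also a phosphatidate phosphatase, was 1.42 higher, while *Smarcd3*, a subunit of the SWI/SNF complex, was at -1.54. Of 17 tested nuclear receptors that PGC-1 proteins bind, 5 were higher and 7 lower. *Rxrg* was 2.52 higher, and *Thrb*, the thyroid hormone receptor β, was 1.47 higher, at 3.91 ± 0.344 against 0.768 ± 0.102 FPKM, though Cre and ctrl cells did not differ past the threshold (-0.15, adjusted p = 0.253).

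Of 26 tested DNA-binding regulators of brown and beige adipocytes, 12 were higher and 7 lower in NFIA than in Cre cells (27.0% and 35.9% of all genes, median 0.18), with *Zbtb16* at 1.37 and *Tbx15* at -1.06. Of 24 tested factors of mitochondrial DNA upkeep and transcription, the processes TFAM serves, 12 were higher and 1 lower (median 0.21), and 11 were lower and 1 higher in Cre than in ctrl cells (22.7% and 36.1% of all genes). *Tfb1m*, a methyltransferase of the mitochondrial ribosomal RNA, was 1.01 higher and *Lonp1*, the mitochondrial protease that degrades TFAM, 0.58 higher in NFIA than in Cre cells. The lists share a few genes, such as *Cd36* and *Adrb3*.

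**Figure D5:**
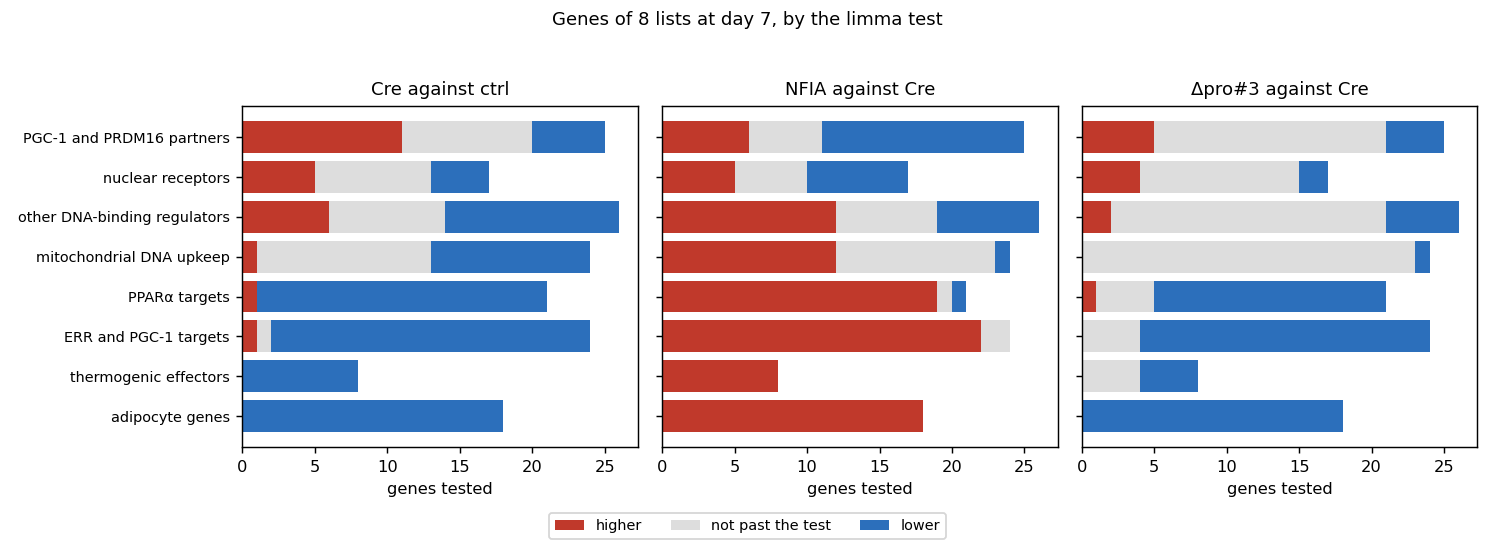
Number of genes tested in each of 8 lists at day 7 that passed the limma test as higher (red), as lower (blue) or did not pass (grey), with 1 panel per comparison. PPARα targets, ERR and PGC-1 targets, effector and adipocyte genes are nearly all lower in Cre than in ctrl cells and higher in NFIA than in Cre cells, and the partner and receptor lists are split.

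The genes whose log2(FPKM + 1) followed each regulator most closely were found by Pearson's r over the 24 libraries. The libraries share cell types, days and the change from precursor to adipocyte, so high values are common and are given as a description. *Ppargc1a* was most like *Chdh* (r = 0.989), *Snhg11* (0.987) and *Cox8b* (0.986), and *Ppara* was most like *Hephl1* (0.986), *Snhg11* (0.985) and *Mfng* (0.984). *Ppargc1b* was most like *Cfd*, which encodes adipsin (0.998), *Acsl1* (0.996) and *Acer2* (0.996). The receptor gene *Esrra* was closest to *Uqcrq* (0.983) and *Ndufs7* (0.983), both respiratory chain subunits, and to *Agfg2* (0.982).

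*Prdm16* and *Tfam* had looser neighbours, and *Irf4* had r = 0.967 with *St3gal6* and 0.965 with *Alad*. *Prdm16* was closest to *Csad* (0.922) and *Tfam* to *Eif4a1*, a translation initiation factor (0.862). Over the 12 day 7 libraries *Ppargc1a* had r = 0.98 with *Ppara* and 0.66 with *Ppargc1b*, while *Ppargc1b* had r = 0.93 with *Esrra*.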

How the data were processed

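RNA was measured in 24 libraries of a stranded mRNA kit. Per the labels and the methods of the study, the authors aligned reads to mm9 with STAR 2.5.3a, kept unique alignments, counted reads on the matching strand of each gene and deposited FPKM per gene and library. The FPKM values were whole multiples of 1 read (tolerance 0.02 reads), so reads and totals (7.73 to 14.62 M) were recovered. Symbols that a spreadsheet had turned into dates (26) were not named.

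Groups came from the sample titles. A gene was tested when 3 or more libraries reached 1 FPKM (12640 genes), with limma 3.58.1 in R 4.3.3 on log2(FPKM + 1) with a mean-variance trend. Cell types were compared at one day in a fit of its 12 libraries, and days in a fit of all 24. Tests were two-sided, and a gene passed at a Benjamini-Hochberg adjusted p under 0.05 over all genes tested. The fit was tested on simulated data with independent libraries and large changes in genes with a mean of at least 1 FPKM. That run does not bear on small differences, on genes with few reads or on replicates that may be technical. Counting intervals are exact at 95% and cover counting error only. The genes, lists and motifs, and the rule that named the 3 genes with the highest r and the 4 genes of a list with the largest NFIA against Cre differences, of which some are given, were chosen with earlier results of these data known. Alternatives were voom on recovered reads, other pseudocounts, filters, scalings, sample sets and thresholds, a replicate block, and leaving out each library.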

Additional observations from a re-analysis of the deposited data

Results flagged for a closer look

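The difference between cell types changed from day 0 to day 7 in log2(FPKM + 1) for the 7 genes tested, by a limma interaction term over the 24 libraries (the day 7 minus the day 0 difference). Voom on the recovered reads called 5 of the 7 terms in both comparisons below, without *Ppargc1b* and *Irf4*, and *Irf4* reversed in NFIA against Cre cells (-0.75, adjusted p = 0.561). A pseudocount of 0.1 also lost both genes there (adjusted p = 0.0713 for *Ppargc1b* and 0.392 for *Irf4*). *Ppargc1a*, *Ppara* and *Irf4* passed the filter only through the ctrl and NFIA libraries of day 7, which bears on the counts of both comparisons. For Cre against ctrl cells all 7 terms passed below 0, beside 19.5% of all genes. *Ppargc1b* was at -1.19 (SE 0.23, adjusted p = 0.000289), *Ppargc1a* at -0.90 (SE 0.15, adjusted p = 4.22e-05), *Ppara* at -0.88 (SE 0.16, adjusted p = 0.000155) and *Esrra* at -0.86 (SE 0.16, adjusted p = 0.000216). *Irf4* was at -0.78 (SE 0.16, adjusted p = 0.000391), *Prdm16* at -0.53 (SE 0.12, adjusted p = 0.00134) and *Tfam* at -0.37 (SE 0.09, adjusted p = 0.0032).

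For NFIA against Cre cells all 7 terms passed above 0, beside 18.8% of all genes. They were 2.38 for *Ppargc1a* (adjusted p = 1.25e-10), 1.89 for *Ppara* (adjusted p = 1.06e-08), 0.75 for *Prdm16* (adjusted p = 3.89e-05), 0.74 for *Ppargc1b* (adjusted p = 0.0123), 0.62 for *Irf4* (adjusted p = 0.00277), 0.46 for *Esrra* (adjusted p = 0.0259) and 0.26 for *Tfam* (adjusted p = 0.029). Leaving out 1 library ended the *Esrra* call for Cre day 0 replicates 2 and 3, NFIA day 0 replicate 3 and Cre day 7 replicate 3 (0.36, 0.42, 0.40 and 0.35, adjusted p = 0.082, 0.0562, 0.0688 and 0.0886). It ended the *Tfam* call for Cre day 0 replicates 1 and 2, NFIA day 0 replicate 1, Cre day 7 replicate 2 and NFIA day 7 replicates 1 and 2, where the term was 0.20 to 0.25 and the adjusted p 0.0587 to 0.0944. Without Cre day 7 replicate 3 or without Cre day 0 replicate 2 the count for Δpro#3 against Cre cells was 2. In that comparison *Ppargc1b* passed at -1.38 (SE 0.23, adjusted p = 0.000367), beside 10.4% of all genes below 0.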

How the results depend on the processing

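Of the 70 values of single genes followed through the alternatives, 787 of the recomputed values kept direction and side of the threshold, 65 lost the call, 5 gained it and 1 reversed, and with 1 library left out 1221 kept both, 13 lost the call and 2 gained it. The reversal was *Irf4* in the day 7 minus day 0 term of NFIA against Cre cells, at -0.75 by voom (adjusted p = 0.561, against 0.000476 to 0.561 over the alternatives). Voom also lost *Irf4* (-0.76) and *Ppargc1b* (-1.39) in the term of Cre against ctrl, and *Ppargc1b* in those of NFIA against Cre (1.02) and Δpro#3 against Cre (-1.92, a count of 0). With mean FPKM of at least 5, which left *Esrra* and *Tfam*, 2 passed in Cre against ctrl, NFIA against Cre, Δpro#3 against NFIA and Δpro#3 against ctrl at day 7, 0 in Δpro#3 against Cre and NFIA against ctrl, 0 in NFIA against Cre at day 0, 2, 1, 2 and 0 between days in ctrl, Cre, NFIA and Δpro#3 cells, and 2, 2 and 0 in the terms of Cre against ctrl, NFIA against Cre and Δpro#3 against Cre. With a change of at least 3-fold on the log2(FPKM + 1) scale as well, the counts in the same order of comparisons were 0, 2, 3, 1, 0, 0 and 0, then 1, 1, 3 and 0, then 0, 2 and 0. An adjusted p under 0.01 left 4 terms of NFIA against Cre. Δpro#3 against NFIA at day 0 gave 1 without the trend and by voom. Between days, Δpro#3 cells gave 2 with a pseudocount of 0.1, size factors, only the groups compared or voom, and 3 with quantile normalization. Leaving out 1 library gave 1 to 2 for Δpro#3 against Cre at day 7, 0 to 1 for Δpro#3 against NFIA at day 0, 1 to 2 between days in Δpro#3 cells and 1 to 2 for the term of Δpro#3 against Cre. The cause was not tested in any of these, apart from the fewer genes that stricter filters leave. Replicate numbers did not pair the samples (correlations of deviations from -0.274 to 0.218), and with a replicate block Δpro#3 against Cre at day 7 gave 2, with *Esrra* added (adjusted p = 0.0328).

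Size factors moved the median of all genes from 0.09 to -0.02 in Cre against ctrl and from 0.13 to -0.00 in Δpro#3 against ctrl at day 7, and no called difference of the 7 genes at day 7 changed direction. Depth limits *Esrrg*, *Ppargc1a* and *Irf4* where they have a few reads per library, so that small differences between such groups could not be detected.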

Other observations

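*Ucp1*, the uncoupling protein that brown adipocytes use for heat, was below the filter on low values. At day 7 it had 18, 9 and 36 reads in ctrl cells, 5, 2 and 0 in Cre cells, 18, 13 and 28 in NFIA cells and 1, 0 and 0 in Δpro#3 cells. Its FPKM was 0.988 ± 0.522 in ctrl and 0.871 ± 0.27 in NFIA cells (SD, n = 3), which overlap, while *Ppargc1a* was 4.07 times higher in NFIA than in ctrl cells. The titles of these samples name no β-adrenergic agonist or forskolin.

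Smooth muscle genes also moved with the cell types. Their summed FPKM was 219 to 282 in ctrl, 262 to 323 in Cre, 122 to 148 in NFIA and 349 to 431 in Δpro#3 libraries at day 7, so the NFIA libraries were lowest. The sum was mostly *Acta2* and *Tagln*, as *Myh11* and *Des* reached at most 3.03 and 1.71 FPKM in any library.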
